A study of Mus musculus with 9 samples.

Results

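The 53 genes described here encode components, regulators and receptors of the complement and coagulation cascades. They were taken by symbol from a table of 24453 mouse genes, in which each of the 53 has 1 entry, and 49 of them passed the filter on low counts. From general knowledge each was given a source class. Of the 53, 30 were classed as secreted by the liver, 8 as made by liver and mesenchyme, 7 as myeloid, 3 as endothelial, and 5 as on the surface of many cell types. The liver class includes Cfb and Masp1, which are also known from stromal or stellate cells. The table holds RNA sequencing of collagen-producing fibroblasts from fibrotic mouse livers and of hepatic stellate cells (HSCs), with 3 libraries in each of 3 groups. HSCs are the vitamin A-storing pericytes from which such fibroblasts mainly arise. Those used here were collected on a density gradient, with no sort, from normal livers of C57BL/6J wild-type mice. CCl4-fib came from Col1a2-GFP Tg mice injected intraperitoneally with carbon tetrachloride (CCl4), a hepatocyte toxin, 2 times per week for 8 weeks. NASH-fib came from Col1a2-GFP Tg mice that also lacked the melanocortin 4 receptor (MC4R-KO, on the C57BL/6J background). These mice were put on Western diet (WD) at 8 weeks of age for 20 weeks, a model of non-alcoholic steatohepatitis (NASH) with obesity. The ages of the other mice are not given in the sources used here. Both kinds of fibroblast were sorted as CD45- GFP+ cells, with GFP driven by the collagen α2(I) promoter. The gate was thus set to leave out cells in which this promoter is silent. Transcripts typical of hepatocytes, leukocytes and endothelium were still found in the sorted libraries, as given below. Each library pools cells of 3 to 5 mice. The way of isolation differs between HSCs and both fibroblast groups, and MC4R-KO always comes with WD, so these cannot be told apart from the group.

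Complement is a chain of plasma proteases and their substrates that marks surfaces for uptake and lysis. The classical and lectin routes cut C4 and C2, and the alternative route works through factor B. All of them meet at C3, and the terminal components then assemble into a pore. Coagulation is a second chain of proteases, set off by tissue factor on cells outside the blood, that ends in thrombin and fibrin. Hepatocytes supply most of the plasma pool of both. C1q, properdin and the anaphylatoxin receptors belong mainly to macrophages and neutrophils, and factor VIII and von Willebrand factor to endothelium, while fibroblasts are a known local source of C3, C7 and C1 inhibitor.

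The libraries held 3071070 to 3825522 reads on genes in HSCs, 4687349 to 5634273 in CCl4-fib and 3289758 to 5021156 in NASH-fib. Levels are given below as scaled read counts, the deposited counts brought to a common library total, on which 3 reads are worth 2.38 to 4.37. A group with at most 3 reads in every library is called at the floor. The markers of the labelled cells were present. Lrat, the retinol acyltransferase of stellate cells, stood at 7070.5 to 14894 in HSCs and 95.4 to 458 in the fibroblasts. Col1a1, a collagen chain, stood at 452 to 968 and 3738 to 11375 and Acta2, smooth muscle actin, at 40.8 to 93.5 and 5300.2 to 8983. Both are among 10 activated fibroblast markers that were listed. By the limits given below, 8 of the 10 were higher than in HSCs in CCl4-fib and 6 in NASH-fib. In NASH-fib, Postn was lower than in HSCs. Of the 10, 4 were lower in NASH-fib than in CCl4-fib, Col1a1 among them (40%, against 5.66% of all genes tested). HSC replicate 2 and NASH-fib replicate 1 stood apart from the rest of their groups in the same direction, the correlation of their deviations across genes being 0.645. With CCl4-fib replicate 1, they share the number that opens the library names. The deviations of CCl4-fib replicate 1 gave -0.072 with HSC replicate 2 and -0.127 with NASH-fib replicate 1. HSC replicate 3 and NASH-fib replicate 3, which differ in that number, gave 0.514. Leaving out HSC replicate 2 and NASH-fib replicate 1 gave 39, 13 and 17 called genes of the 53 where all libraries gave 35, 11 and 19, for CCl4-fib against HSC, NASH-fib against HSC and NASH-fib against CCl4-fib. Within the 3 libraries that share that number, 1 of each group, all 35, 11 and 19 called differences had the same sign. These libraries were part of the fit that made the calls, so this is no independent support. The authors counted at most 3 reads per position and strand, which flattens the highest genes. Of the genes here this concerns Serping1, C3 and Cfb, with up to 6.49, 5.95 and 3.95 reads per exonic base, which compresses their differences.

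In CCl4-fib most genes of both cascades were far lower than in HSCs, and a handful were far higher. A call means that the log2 fold change was 1 or more in either direction with an adjusted p under 0.05 (limma, Benjamini-Hochberg over 13651 genes), and ± is the standard error throughout. Of the 49 tested, 29 were called lower (59.2%, against 11.7% of all genes tested) and 6 higher (12.2%, against 16.2%), with a median log2 fold change of -3.09 beside 0.18 over all genes. The 6 higher genes were C3, C4b, C7, Cfb, Cd55 and F3, none of them a member of the plasma clotting factors or of the fibrinogen chains.

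In NASH-fib against HSCs fewer genes were called. Higher were 5 genes (10.2%, against 8.23% of all genes), namely C2, C3, C7, F3 and F13a1. Lower were 6 (12.2%, against 4.3%), namely C6, Masp1, F2, Pros1, Cfp and F2r, and the median was -0.94 beside -0.022. Between the fibroblasts, 18 genes were higher in NASH-fib than in CCl4-fib (36.7%, against 4.97% of all genes) and 1, Cd55, was lower (2%, against 5.66%), with a median of 1.83 beside -0.111. With edgeR and its TMM scaling, NASH-fib against HSC gave 7 higher and 3 lower of the genes here. All genes tested split into 678 higher and 773 lower between the fibroblasts, and into 802 and 563 with edgeR. Of the 49, F13a1 passed the filter on low counts only through NASH-fib, where it is high, so it had to differ and its calls support nothing. The 3 comparisons share libraries, so their values for a gene are set side by side and not compared as independent. In bulk libraries, fewer cells of a type and less RNA per cell cannot be told apart. With genes at the floor set at their bounds, the medians were -3.09, -0.94 and 1.83.

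**Figure D1:**
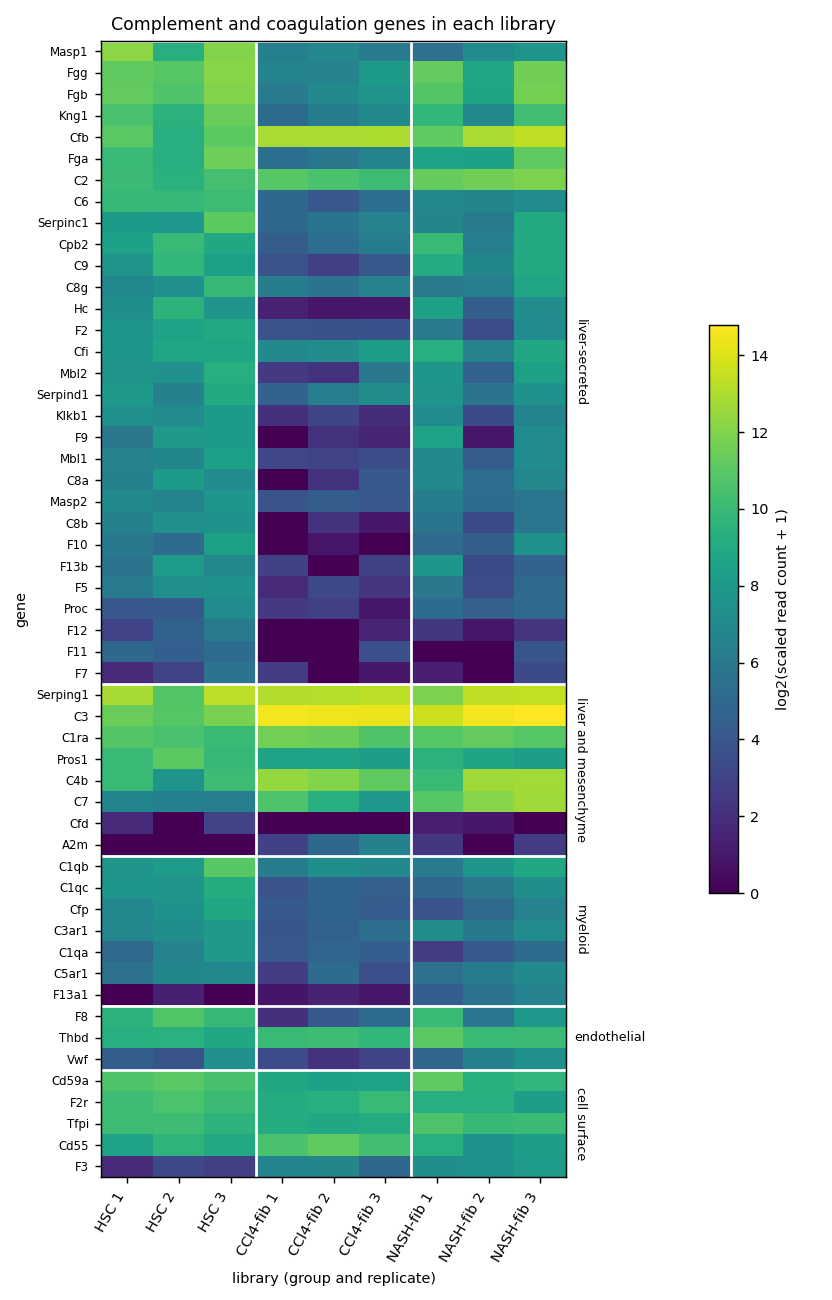
Level of each of the 53 genes (rows, ordered within each source class by the mean in HSCs) in the 9 libraries (columns), as log2(scaled read count + 1) on the colour scale. In the liver-secreted block the 3 CCl4-fib columns are dark except for Cfb, C2 and a few others, while C3, Serping1 and C4b in the block below are bright in both fibroblast groups.

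By source, the 28 liver-secreted genes tested held 22 of the 29 genes lower in CCl4-fib than in HSCs (78.6% of the class, against 11.7% of all genes), with a median of -4.39, and only Cfb among them was higher (3.6%, against 16.2%). In NASH-fib against HSCs, 3 of these 28 were lower (C6, Masp1 and F2, 10.7% against 4.3%), 1 was higher (C2, 3.6% against 8.23%), and the median was -1.14. Against CCl4-fib, 12 of the 28 were higher in NASH-fib (42.9%, against 4.97%) and 0 lower, with a median of 2.92. The 6 tested genes of liver and mesenchyme behaved otherwise: their medians were 1.72 in CCl4-fib and 1.55 in NASH-fib against HSCs. Of them 3 and 2 were called higher (50% and 33.3%, against 16.2% and 8.23%), and Pros1 was called lower in both (16.7%, against 11.7% and 4.3%).

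The genes on which these contrasts turn are C3, C7 and F3, higher in both fibroblast groups, and the fibrinogen chains Fgb and Fga, lowest in CCl4-fib. Their promoters are shown from RefSeq on GRCm38.p6 (mm10), 250 bases before and 50 after the start of the transcript. Capitals mark matches to 4 short motifs on either strand, namely GTTAAT, part of the site of the liver factor HNF1, TTGCNNAA for C/EBP, TATAAA for the TATA box and TGANTCA for AP-1. The C3 promoter lies at chr17:57228087-57228386 on the minus strand and that of C7 at chr15:5063724-5064023 on the minus strand. That of F3 lies at chr3:121723287-121723586 on the plus strand, that of Fgb at chr3:83049814-83050113 on the minus strand and that of Fga at chr3:83025903-83026202 on the plus strand.
C3: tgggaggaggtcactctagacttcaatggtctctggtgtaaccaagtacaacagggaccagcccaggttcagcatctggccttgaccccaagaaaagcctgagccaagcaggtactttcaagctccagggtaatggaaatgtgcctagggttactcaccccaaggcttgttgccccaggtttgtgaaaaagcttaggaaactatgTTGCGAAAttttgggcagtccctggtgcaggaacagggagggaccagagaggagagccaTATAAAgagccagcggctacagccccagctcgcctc
C7: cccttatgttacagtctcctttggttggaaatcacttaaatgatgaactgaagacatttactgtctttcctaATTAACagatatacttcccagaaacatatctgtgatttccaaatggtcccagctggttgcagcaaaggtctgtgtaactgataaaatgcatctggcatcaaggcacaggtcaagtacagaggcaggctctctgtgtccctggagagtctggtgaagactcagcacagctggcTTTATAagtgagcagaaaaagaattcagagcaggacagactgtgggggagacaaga
F3: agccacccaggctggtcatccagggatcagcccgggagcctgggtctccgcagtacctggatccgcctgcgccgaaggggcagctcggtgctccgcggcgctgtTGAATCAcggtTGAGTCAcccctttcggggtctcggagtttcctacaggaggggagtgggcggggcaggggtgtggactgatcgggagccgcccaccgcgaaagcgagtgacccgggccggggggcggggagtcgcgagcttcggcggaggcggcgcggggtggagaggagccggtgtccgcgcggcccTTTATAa
Fgb: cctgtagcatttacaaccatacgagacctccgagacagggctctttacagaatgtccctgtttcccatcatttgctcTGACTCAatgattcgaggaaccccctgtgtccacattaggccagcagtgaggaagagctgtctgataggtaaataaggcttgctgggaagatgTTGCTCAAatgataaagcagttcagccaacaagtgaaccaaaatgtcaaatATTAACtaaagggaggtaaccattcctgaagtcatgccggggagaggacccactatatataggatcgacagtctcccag
Fga: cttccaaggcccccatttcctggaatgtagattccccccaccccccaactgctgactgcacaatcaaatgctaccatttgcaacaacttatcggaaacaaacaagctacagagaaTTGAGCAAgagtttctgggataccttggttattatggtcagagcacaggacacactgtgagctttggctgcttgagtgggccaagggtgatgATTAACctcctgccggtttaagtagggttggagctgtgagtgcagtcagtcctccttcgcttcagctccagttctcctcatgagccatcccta
The promoter of C3 held a C/EBP match and, past the start, a TATA match. That of C7 held an HNF1 match and, right before the start and on the opposite strand, a TATA match. The promoter of F3 held a pair of AP-1 matches side by side and a TATA match past the start. Fgb and Fga each held an HNF1 match within 50 bases before the start and a C/EBP match, and Fgb also an AP-1 match. The table had a promoter for 41 of the 53 genes and listed none for Serping1, Cfb, Vwf, C1qa, A2m, Proc, Thbd, Kng1, C2, Cfi, C4b and Masp1. Of the 24 liver-secreted genes with a promoter, 7 held the HNF1 letters (29.2%, against 7.1% of 32851 promoters of the same length) and 8 the C/EBP motif (33.3%, against 10.8%), while the TATA box was found in 2 (8.33%, against 13.6%) and AP-1 in 2 (8.33%, against 7.81%). Of all 41 genes with a promoter, 11 held the HNF1 letters (26.8%) and 10 the C/EBP motif (24.4%). Each of these motifs was found in 2 of the 5 genes of liver and mesenchyme (40%). The HNF1 letters were also in 1 of 6 myeloid and 1 of 5 surface genes, and the C/EBP motif in 0 of both. Such matches describe the letters of a window and are no evidence of binding.

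C3, the component on which all complement routes converge, was the most abundant of the 53 in the CCl4-fib and NASH-fib libraries by reads. Its level was 2818, 1921 and 3572 in the HSC libraries, 24066, 21630.0 and 21318 for CCl4-fib and 13134, 24678 and 28306 for NASH-fib, and no fibroblast library overlapped the HSCs. It was 8.06-fold higher in CCl4-fib by group means (limma, log2 fold change 3.05 ± 0.39, adjusted p = 0.000307) and 7.96-fold in NASH-fib (log2 fold change 2.96 ± 0.39, adjusted p = 0.000575). Between the fibroblasts C3 was not called (log2 fold change -0.09 ± 0.39, adjusted p = 0.893). C3 lies on chromosome 17 (mm10, chr17:57203967-57228136, minus strand), and the call against HSCs held under every alternative tried in both comparisons. Per kb of exon, C3 stood above 94.2% of the genes tested in HSCs and above 99.8% in both fibroblast groups.

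C7, which joins the growing pore after C5 and C6 and is made by stromal cells, had the largest fitted rise of the 49 tested in NASH-fib against HSC. It stood at 101, 83.0 and 77.7 in the HSC libraries, 1587, 621 and 239 for CCl4-fib and 1985, 4328 and 6614 for NASH-fib. The HSC libraries lay close together, the CCl4-fib libraries spread widely above them, and all NASH-fib libraries lay above all CCl4-fib libraries. C7 was 9.37-fold higher in CCl4-fib than in HSCs (log2 fold change 2.82 ± 0.64, adjusted p = 0.00829) and 49.5-fold in NASH-fib (log2 fold change 5.46 ± 0.64, adjusted p = 0.000304), and 5.28-fold higher in NASH-fib than in CCl4-fib (log2 fold change 2.63 ± 0.64, adjusted p = 0.0295). The last call was lost without CCl4-fib replicate 2 or 3 or NASH-fib replicate 2 or 3, with an adjusted p of up to 0.104 over all alternatives, whereas both calls against HSCs held in all of them.

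C4b, the thioester protein cut by the classical and lectin routes, stood at 1009, 204 and 1121 in the HSC libraries, 5613, 4152 and 2288 for CCl4-fib and 1033, 6457 and 6726 for NASH-fib. Its lowest HSC and lowest NASH-fib libraries were the pair that stands apart. It was called higher in CCl4-fib (log2 fold change 2.61 ± 0.82, adjusted p = 0.036), a call lost when any CCl4-fib library or HSC replicate 1 or 2 was left out (adjusted p up to 0.123), and not in NASH-fib (log2 fold change 2.53 ± 0.82, adjusted p = 0.0728), where the groups overlap. C4b has a near copy, C4a, with which reads may be exchanged, and C4a was also called higher in CCl4-fib, at 1172, 958 and 518 against 237, 48.0 and 265 in HSCs.

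Serping1, which encodes C1 inhibitor, the brake on the C1 and lectin proteases and on kallikrein, was high in every group: its level was 7413, 1823 and 10217 in the HSC libraries, 8707, 9032 and 10044 for CCl4-fib and 3867, 10460.5 and 11109 for NASH-fib. The groups overlapped in all comparisons and none was called (0.84 ± 0.62 and 0.57 ± 0.62 against HSCs), on a scale flattened at this level. C1ra, a protease of C1 with the near copy C1rb, ranged from 1056 to 1794 in HSCs, 1695 to 3214 in CCl4-fib and 1860.5 to 2406 in NASH-fib, with no call. Pros1, protein S, the cofactor of activated protein C, went the other way at 1033, 2171 and 905 in the HSC libraries, 367, 367 and 299 for CCl4-fib and 738, 395 and 312 for NASH-fib. It was lower in CCl4-fib (log2 fold change -1.88 ± 0.43, adjusted p = 0.00899) and in NASH-fib (log2 fold change -1.49 ± 0.43, adjusted p = 0.0476), with no overlap in either comparison, but the NASH-fib call was lost when HSC replicate 1 or 2, NASH-fib replicate 2 or 3 or any CCl4-fib library was left out, and it held under 3 of the 9 other settings.

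Against HSCs, most markers of activated fibroblasts and of other collagen-producing or epithelial cells moved with C3, C7 and Cfb. All 5 mesothelial markers and 7 of 8 portal fibroblast markers were higher than in HSCs in both fibroblast groups (100% and 87.5%). So were 4 of 6 cholangiocyte markers in CCl4-fib (66.7%) and 6 of 6 in NASH-fib (100%). Of the 10 activated fibroblast markers, 8 were higher than in HSCs in CCl4-fib (80%) and 6 in NASH-fib (60%). There 1 of them, Postn, was lower (10%, against 4.3% of all genes tested). Of all genes tested, 16.2% were higher in CCl4-fib and 8.23% in NASH-fib. Epcam, a cholangiocyte marker, passed the filter on low counts only through NASH-fib, where it is high, so its calls support nothing. The mesothelial sum was 154 to 574 in HSCs, 9989 to 14579 in CCl4-fib and 5375 to 17927 in NASH-fib, the portal fibroblast sum 169 to 203, 11160.5 to 14123 and 2685 to 9621, and the cholangiocyte sum 72.5 to 226, 3488 to 4778 and 6087 to 11854. At 0 reads were Thy1 in HSC replicate 2, Pi16 in HSC replicate 3, Epcam in HSC replicates 1 and 3, Cftr in HSC replicate 2 and CCl4-fib replicate 3, and Gli1 in CCl4-fib replicate 3. Between the fibroblasts, C7 was higher in NASH-fib. There the median log2 fold changes of the mesothelial, portal fibroblast and cholangiocyte markers were -0.17, -1.08 and 1.58, beside -0.111 over all genes. The median of the activated fibroblast markers was -0.78. The part of these cells in the levels of C3, C7 and Cfb was not tested.

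Cfd and A2m of this class failed the filter on low counts. Cfd, the adipocyte product factor D, stood at 0 to 7.17 across the libraries. A2m, a broad protease inhibitor, had 0 reads in all HSC libraries and 6.35, 29.8 and 88.7 in CCl4-fib, at least 10.9-fold above the floor, beside 4.08, 0 and 4.91 in NASH-fib, and was not tested.

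**Figure D2:**
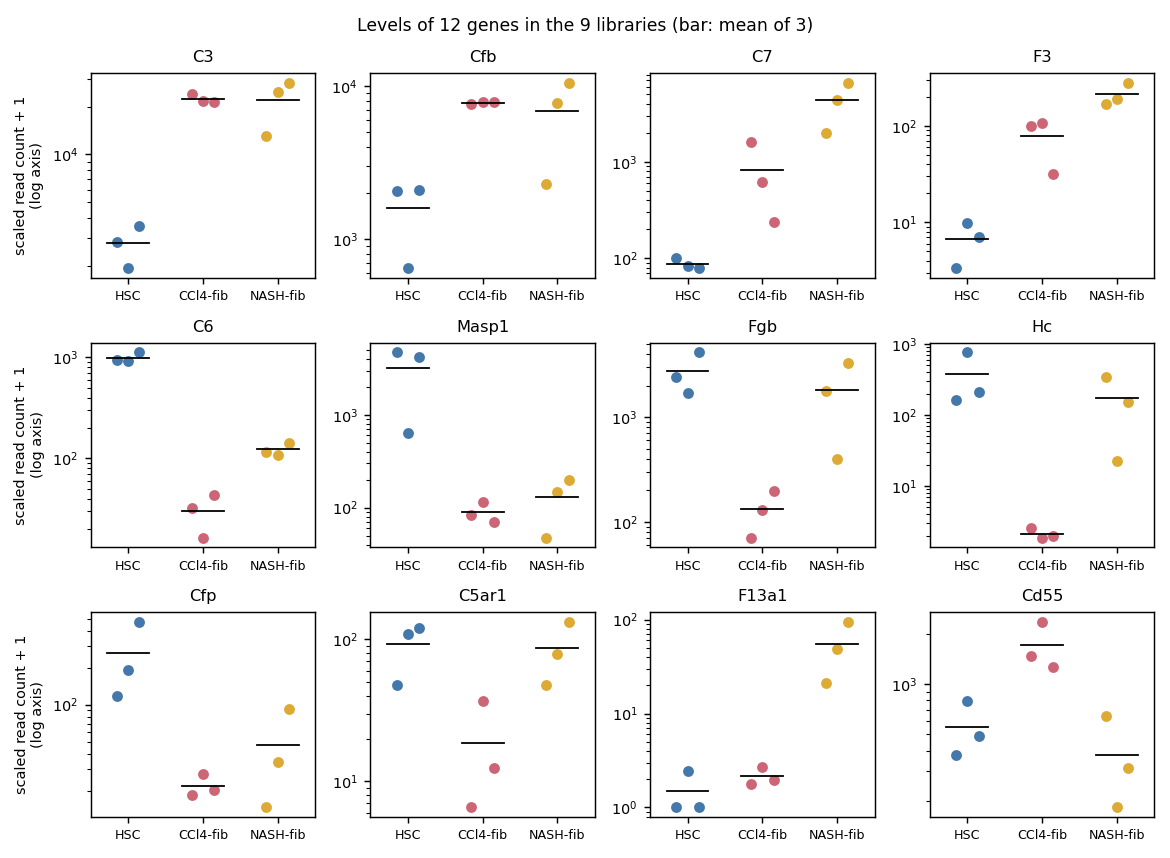
Scaled read count + 1 (log axis) of 12 genes in the 9 libraries, with points for libraries and a bar for the mean of each group. C3, Cfb, C7 and F3 lie above the HSCs in both fibroblast groups, C6 and Masp1 below them in both, Fgb and Hc are lowest in CCl4-fib, F13a1 is at the floor except in NASH-fib, and Cd55 is highest in CCl4-fib.

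Cfb, factor B, supplies the protease of the alternative C3 convertase and is made by hepatocytes and by cytokine-stimulated stromal cells. It stood at 2068, 645 and 2107 in the HSC libraries, 7653, 7840.0 and 7939 for CCl4-fib and 2296, 7723 and 10584 for NASH-fib. The CCl4-fib libraries hardly varied, and HSC replicate 2 and NASH-fib replicate 1 were the lowest of their groups. Cfb was called higher in CCl4-fib (log2 fold change 2.47 ± 0.60, adjusted p = 0.0122), while in NASH-fib the groups did not overlap but the adjusted p missed the limit (log2 fold change 2.02 ± 0.60, adjusted p = 0.0535). C2, its counterpart in the classical and lectin convertase, lies beside it on chromosome 17 and stood at 1084, 683 and 1392 in the HSC libraries, 1947, 1498 and 1131 for CCl4-fib and 2523, 3021 and 3779 for NASH-fib. All NASH-fib libraries exceeded all others, and C2 was called higher in NASH-fib than in HSCs (log2 fold change 1.60 ± 0.37, adjusted p = 0.0152), a call lost without NASH-fib replicate 3 and with the number that opens the library names as a term in the fit. It was not called against CCl4-fib (log2 fold change 1.04 ± 0.37, adjusted p = 0.0956). A readthrough gene, Gm20547, covers 82.1% of the exonic bases of Cfb and 62.7% of those of C2, so reads of these genes cannot be fully separated.

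Of the terminal components that follow C3, Hc, C6, C8a, C8b and C9 were lower in CCl4-fib than in HSCs, C7 was higher and C8g was not called. C6 showed the tightest values of them, at 935, 917 and 1131 in the HSC libraries, 30.9, 15.3 and 42.0 for CCl4-fib and 116, 107 and 143 for NASH-fib. It was lower than in HSCs in CCl4-fib (log2 fold change -5.14 ± 0.41, adjusted p = 3.1e-05) and in NASH-fib (log2 fold change -3.03 ± 0.41, adjusted p = 0.000768) and held under all alternatives in both. C6 lies near C7 on chromosome 15 (C6 at chr15:4727210-4804045, C7 at chr15:4988762-5063773, mm10), which was higher in both fibroblast groups. C6 was higher in NASH-fib than in CCl4-fib (log2 fold change 2.11 ± 0.41, adjusted p = 0.0155), a call lost without CCl4-fib replicate 2 or NASH-fib replicate 3. Its percentile per kb of exon was 91.2 in HSCs, 22.1 in CCl4-fib and 56.3 in NASH-fib.

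Hc, which encodes C5, the source of the strongest anaphylatoxin, stood at 161, 766 and 207 in the HSC libraries, 1.59, 0.85 and 0.95 for CCl4-fib and 336, 21.4 and 153 for NASH-fib. The CCl4-fib libraries were at the floor, at least 145.5-fold below the HSCs and at least 65.5-fold below NASH-fib. Both differences were called (adjusted p = 0.000354 and 0.0101, limma), while NASH-fib and HSCs overlapped (log2 fold change -1.49 ± 0.93, adjusted p = 0.416). C9, the pore-forming subunit, gave 198, 894 and 332 in the HSC libraries, 12.7, 5.95 and 16.2 for CCl4-fib and 551, 110.4 and 506 for NASH-fib. Its pattern was alike, lower in CCl4-fib (log2 fold change -5.05 ± 0.73, adjusted p = 0.000672) and higher in NASH-fib than in CCl4-fib (log2 fold change 4.74 ± 0.73, adjusted p = 0.00863).

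C8a and C8b encode chains of C8, which anchors the complex in the membrane. C8a stood at 88.8, 261 and 147 in the HSC libraries, 0, 3.40 and 16.2 for CCl4-fib and 135, 39.2 and 116 for NASH-fib. C8b stood at 90.0, 169 and 189 in the HSC libraries, 0, 3.40 and 0.95 for CCl4-fib and 53.02, 8.91 and 55.0 for NASH-fib. Both were lower in CCl4-fib than in HSCs (log2 fold changes -5.16 ± 0.94 and -6.13 ± 0.80, adjusted p = 0.00248 and 0.00038, limma) and higher in NASH-fib than in CCl4-fib (4.35 ± 0.94 and 3.92 ± 0.80, adjusted p = 0.0213 and 0.0179). NASH-fib overlapped the HSCs for C8a but lay below them for C8b, with no call for either. The calls between the fibroblasts were lost without CCl4-fib replicate 1 or NASH-fib replicate 3, and that of C8a also without CCl4-fib replicate 2 or NASH-fib replicate 1. C8g, the lipocalin chain, ranged from 120.4 to 919 in HSCs, 50.2 to 93.5 in CCl4-fib and 70.7 to 430.5 in NASH-fib, with no call.

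In the lectin route, a gene was low in both fibroblast groups. Masp1, a protease that starts this route and is known as a product of stellate cells as well as hepatocytes, stood at 4751, 635 and 4184 in the HSC libraries, 83.3, 114 and 69.7 for CCl4-fib and 46.2, 146 and 198 for NASH-fib. The HSC library lowest for Masp1, replicate 2, was still above every fibroblast library. Masp1 was 35.9-fold lower in CCl4-fib (log2 fold change -4.72 ± 0.76, adjusted p = 0.0013) and 24.6-fold lower in NASH-fib (log2 fold change -4.39 ± 0.76, adjusted p = 0.00323). Between the fibroblasts it was not called (log2 fold change 0.34 ± 0.76, adjusted p = 0.797). Both calls against HSCs held under all alternatives. Per kb, Masp1 stood in percentile 97.3 of the genes tested in HSCs, and in 48.6 and 58.9 in CCl4-fib and NASH-fib.

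Masp2, the protease that cuts C4 and C2, was lower in CCl4-fib and intermediate in NASH-fib, at 132, 102 and 219 in the HSC libraries, 13.5, 19.6 and 15.3 for CCl4-fib and 77.5, 34.7 and 55.0 for NASH-fib. It was called in CCl4-fib against HSCs (log2 fold change -3.09 ± 0.48, adjusted p = 0.00105) and not in NASH-fib (log2 fold change -1.42 ± 0.48, adjusted p = 0.0887). Of its exonic bases, 59.4% overlap Tardbp on the opposite strand, which counting of both strands cannot separate. The mannose-binding lectins Mbl1 and Mbl2 recognise sugars on microbes. Mbl1 stood at 94.7, 109 and 322 in the HSC libraries, 7.94, 6.80 and 10.5 for CCl4-fib and 135, 19.6 and 143 for NASH-fib. Mbl2 stood at 203, 181 and 624 in the HSC libraries, 4.76, 3.40 and 60.1 for CCl4-fib and 215, 23.2 and 333 for NASH-fib. Both were lower in CCl4-fib than in HSCs (-4.02 ± 0.77 and -4.62 ± 1.15, adjusted p = 0.00334 and 0.0131, limma), Mbl2 not without CCl4-fib replicate 1 or 2, and Mbl1 was higher in NASH-fib than in CCl4-fib (log2 fold change 2.99 ± 0.77, adjusted p = 0.0356), a call lost without HSC replicate 1, any CCl4-fib library or NASH-fib replicate 1 or 3. Cfi, the protease that inactivates activated C3 and C4, ranged from 217 to 423 in HSCs, 132 to 310.1 in CCl4-fib and 92.6 to 631 in NASH-fib, and was not called in any comparison.

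The 3 fibrinogen chains, which thrombin turns into fibrin, lie side by side on chromosome 3 and moved together. Fgb stood at 2434, 1694 and 4202 in the HSC libraries, 69.0, 129 and 197 for CCl4-fib and 1799.8, 394 and 3326 for NASH-fib. Fgg stood at 2352, 1989 and 4646 in the HSC libraries, 96.8, 92.7 and 262 for CCl4-fib and 2406, 421 and 3016 for NASH-fib. Fga stood at 1002, 617 and 2939.8 in the HSC libraries, 42.1, 58.7 and 103 for CCl4-fib and 387, 358 and 2352 for NASH-fib. Each was highest in HSC replicate 3 and lowest in a CCl4-fib library, and NASH-fib overlapped the HSCs but not CCl4-fib. Against HSCs the differences in CCl4-fib were -4.25 ± 0.77, -4.41 ± 0.72 and -4.38 ± 0.72 for Fga, Fgb and Fgg (adjusted p = 0.00245, 0.00135 and 0.00144, limma), and held under all alternatives. NASH-fib exceeded CCl4-fib by 3.42 ± 0.77, 3.45 ± 0.72 and 3.44 ± 0.72 (adjusted p = 0.0234, 0.0185 and 0.0192), calls that were lost without CCl4-fib replicate 1 or 2 or NASH-fib replicate 3. Their summed level was 4300.1 to 11788 in HSCs, 208 to 562 in CCl4-fib and 1173 to 8694 in NASH-fib.

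Prothrombin, encoded by F2, stood at 224, 364 and 495 in the HSC libraries, 12.7, 11.9 and 12.4 for CCl4-fib and 66.6, 9.80 and 143 for NASH-fib. The CCl4-fib values were nearly equal and all below the HSCs (log2 fold change -4.69 ± 0.80, adjusted p = 0.00179), and NASH-fib was called lower as well (log2 fold change -2.87 ± 0.80, adjusted p = 0.0403), a call lost when NASH-fib replicate 2, any HSC library or any CCl4-fib library was left out. F5, the cofactor that speeds its activation, gave 66.6, 169 and 185 in the HSC libraries, 2.38, 8.51 and 3.82 for CCl4-fib and 57.1, 9.80 and 33.4 for NASH-fib. F10, the protease that performs it, gave 62.0, 36.4 and 344 in the HSC libraries, 0, 0.85 and 0 for CCl4-fib and 32.6, 21.4 and 189.7 for NASH-fib. In CCl4-fib F10 was at the floor, at least 56.8-fold below the HSCs and at least 31.3-fold below NASH-fib (adjusted p = 0.00105 and 0.0125, limma). F5 was lower in CCl4-fib than in HSCs (log2 fold change -4.58 ± 0.73, adjusted p = 0.00122), and in NASH-fib it lay between the other groups without a call.

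F9, the haemophilia B protease of the intrinsic route, stood at 57.3, 252 and 263 in the HSC libraries, 0, 3.40 and 1.91 for CCl4-fib and 368, 0.89 and 143 for NASH-fib. It was called lower in CCl4-fib (log2 fold change -6.07 ± 1.62, adjusted p = 0.0185), a call lost without HSC replicate 2 or CCl4-fib replicate 1, and its NASH-fib libraries spread from 0.89 to 368. F13b, the carrier of the fibrin-stabilising factor XIII, gave 50.3, 277 and 115 in the HSC libraries, 6.35, 0 and 6.68 for CCl4-fib and 222, 8.91 and 24.6 for NASH-fib. It was lower in CCl4-fib (log2 fold change -4.94 ± 1.18, adjusted p = 0.0109), while NASH-fib overlapped the HSCs. The remaining proteases of the liver class were scarce: F11 stood at 20.4 to 35.9 in HSCs and at 0 in 2 libraries of each fibroblast group, with no call, and F7 and F12, at most 49.02 and 63.4 in any library, were not tested.

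Of the plasma inhibitors, Serpinc1 and Proc were lower in CCl4-fib than in HSCs. Serpinc1, antithrombin, stood at 265, 239 and 2176 in the HSC libraries, 30.9, 51.9 and 94.5 for CCl4-fib and 105, 69.5 and 535 for NASH-fib. HSC replicate 3 was far above the rest, and the call in CCl4-fib (log2 fold change -3.25 ± 0.94, adjusted p = 0.0267) was lost without it, without CCl4-fib replicate 1 or 2, and with DESeq2. In the GENCODE annotation, 59.2% of the 4970 exonic bases of Serpinc1 overlap Zbtb37 on the opposite strand. The form of the gene that was counted has 2151 exonic bases, and the share of these that overlap was not worked out. Proc, protein C, ranged from 15.2 to 145 in HSCs to 0.95 to 5.95 in CCl4-fib and was called lower there (log2 fold change -3.04 ± 0.87, adjusted p = 0.0259), but not without HSC replicate 3 or CCl4-fib replicate 1 or 3. Serpind1, heparin cofactor II, ranged from 85.9 to 536 in HSCs, 23.8 to 156 in CCl4-fib and 51.7 to 211 in NASH-fib and was not called.

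Kng1, the kininogen from which bradykinin is released, stood at 1507, 731 and 2839 in the HSC libraries, 36.5, 74.0 and 129 for CCl4-fib and 897, 120.2 and 1238 for NASH-fib. Klkb1, the plasma kallikrein that releases it, stood at 172, 139.8 and 268 in the HSC libraries, 3.17, 7.65 and 2.86 for CCl4-fib and 148, 8.91 and 99.3 for NASH-fib. Cpb2, an inhibitor of fibrinolysis, stood at 357, 1054 and 449.5 in the HSC libraries, 19.8, 40.0 and 76.3 for CCl4-fib and 1039.9, 78.4 and 518 for NASH-fib. In CCl4-fib all were lower than in HSCs without overlap (-4.36 ± 0.85, -5.17 ± 0.90 and -3.78 ± 0.87, adjusted p = 0.0036, 0.00193 and 0.00884, limma), under all alternatives. Klkb1 and Cpb2 were higher in NASH-fib than in CCl4-fib (3.35 ± 0.90 and 3.11 ± 0.87, adjusted p = 0.0405 and 0.0458). In the GENCODE annotation, 43.2% of the 5249 exonic bases of Klkb1 overlap Gm45753 on the same strand. The form that was counted has 2446 exonic bases, and the share of these that overlap was not worked out. The calls of Klkb1 and Cpb2 between the fibroblasts were lost without HSC replicate 1, any CCl4-fib library or NASH-fib replicate 1 or 3. That of Cpb2 was also lost without HSC replicate 3. In NASH-fib replicate 2 these genes lay far below the other NASH-fib libraries. Of the 28 liver-secreted genes tested, 23 had their lowest NASH-fib value in replicate 2 (82.1%, against 23.3% of all genes tested).

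Hepatocyte transcripts moved with these genes. Of 20 hepatocyte markers, 15 were called lower in CCl4-fib than in HSCs (75%, against 11.7% of all genes tested) and 0 higher. Between NASH-fib and HSCs 0 were called, and 11 were higher in NASH-fib than in CCl4-fib (55%, against 4.97%). The lowest NASH-fib value was in replicate 2 for 15 of the 20 (75%, against 23.3%). Their summed level was 38534 to 88574 in HSCs, 13759 to 17802 in CCl4-fib and 18417 to 61199.6 in NASH-fib, and none of the 20 was at 0 reads in a library. Alb, albumin, stood at 9062, 14161 and 11657 in the HSC libraries, 679, 617 and 829 for CCl4-fib and 14897, 1787 and 7894 for NASH-fib, and Apoa1 at 127, 144 and 616 in the HSC libraries, 149, 225 and 158 for CCl4-fib and 34.0, 50.8 and 222 for NASH-fib. Trf, transferrin, made up most of the sum in CCl4-fib, at 9622, 10732 and 12316, and was not called there. The part of hepatocyte RNA in the levels of the liver-secreted genes was not tested.

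The genes of the liver class were also set beside Alb in the same library. Of the 28 tested, 22 had reads in every library, and between the lowest and highest library their own values spanned a median of 65.4-fold and their ratios to Alb 11.16-fold (2.84 to 279.1). The ratio spanned less than the values for 16 and more for 6, namely Cfi, C8g, Serpind1, C2, Masp1 and Cfb. How often this is so over all genes tested was not worked out. Fgg had the narrowest ratio, 14.0 to 39.9 per 100 of Alb over the 9 libraries, a 2.84-fold span where its own values spanned 50.1-fold. The other fibrinogen chains spanned 4.14-fold beside Alb and 60.9-fold in their own values for Fgb, and 11.5 and 69.9 for Fga. The hepatocyte marker Apoh gave 4.53 and 77.7. These ratios are descriptions, Alb itself reached 5.36 reads per base and was thus flattened where high, and Alb was taken as the reference after its values had been seen.

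Serpinc1, with 26.6-fold beside Alb and 70.3-fold in its own values, lay among the wider ratios, and Cfb and Masp1 had the widest. Masp1 stood at 4.48 to 52.4 per 100 of Alb in HSCs, 8.40 to 18.5 in CCl4-fib and 0.31 to 8.17 in NASH-fib, a span of 169-fold. For 3 of the 28, Hc, C9 and F10, every CCl4-fib ratio lay below those of the other groups, with Hc at 1.77 to 5.41, 0.115 to 0.234 and 1.20 to 2.25 and C9 at 2.18 to 6.31, 0.965 to 1.96 and 3.70 to 6.41. For Apoh the same was seen, at 9.58 to 25.9, 5.73 to 7.02 and 7.17 to 12.1. The share of all genes tested with this order was not worked out, so 3 of 28 cannot be called many or few. Cfb, listed with the liver class, stood at 4.56 to 22.8 in HSCs and 958 to 1270.0 in CCl4-fib. C3 stood at 13.6 to 31.1 and 2570.0 to 3550.0. In NASH-fib C3 stood at 88.2 to 1380.0 and C7 at 13.3 to 242, where C7 had been 0.586 to 1.11 in HSCs. Pros1, called lower in CCl4-fib by its own values, stood higher there beside Alb, at 36.0 to 59.6 against 7.76 to 15.3 in HSCs. Alb was itself called lower in CCl4-fib, which raises such ratios there.

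**Figure D3:**
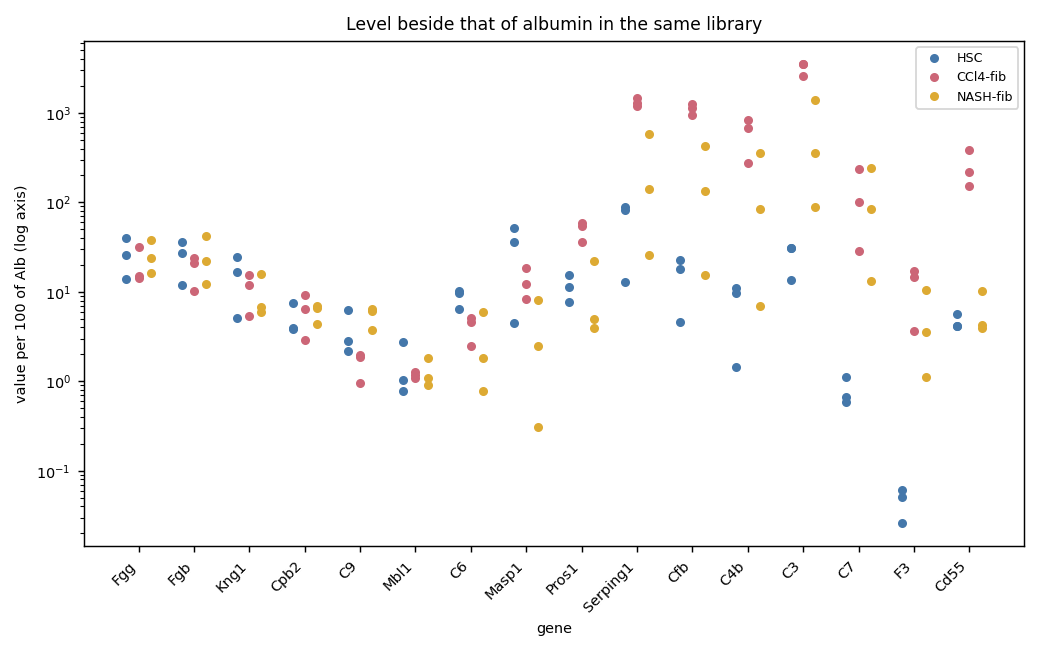
Scaled read count of 16 genes per 100 of the Alb value in the same library (log axis), with 3 points per group. Fgg, Fgb, Kng1, Cpb2 and Mbl1 lie in overlapping bands for all groups, while C3, Cfb, C4b, C7, F3 and Cd55 lie far higher in CCl4-fib than in HSCs. Serping1, which was not called there, and Pros1, which was called lower there, also lie higher. Alb, the divisor, was itself called lower in CCl4-fib.

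Of the 7 myeloid genes, C1qc, Cfp, C3ar1 and C5ar1 were lower in CCl4-fib than in HSCs (57.1%, against 11.7% of all genes tested). In NASH-fib, Cfp was lower than in HSCs and F13a1 higher (14.3% each, against 4.3% and 8.23%). C1qc, a chain of the recognition molecule C1q, stood at 217, 208 and 573 in the HSC libraries, 13.5, 26.4 and 21.9 for CCl4-fib and 28.6, 57.0 and 166 for NASH-fib, and was lower in CCl4-fib than in HSCs (log2 fold change -3.83 ± 0.66, adjusted p = 0.00189). The other chains, C1qa and C1qb, were not called. Their sum with C1qc was 454 to 2820.3 in HSCs, 105 to 217 in CCl4-fib and 99.2 to 668 in NASH-fib, the highest value being HSC replicate 3.

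Cfp, properdin, which holds the alternative convertase together, stood at 116, 191 and 472 in the HSC libraries, 17.5, 26.4 and 19.1 for CCl4-fib and 13.6, 33.0 and 91.4 for NASH-fib. It was lower than in HSCs in CCl4-fib (log2 fold change -3.34 ± 0.71, adjusted p = 0.00591) and in NASH-fib (log2 fold change -2.62 ± 0.71, adjusted p = 0.0352), with the second call lost without HSC replicate 2 or 3, NASH-fib replicate 1 or 2 or any CCl4-fib library. C3ar1, a receptor of the C3 anaphylatoxin, stood at 115, 166 and 245 in the HSC libraries, 14.3, 23.0 and 40.1 for CCl4-fib and 156, 63.2 and 139.6 for NASH-fib. It was lower in CCl4-fib (log2 fold change -2.77 ± 0.53, adjusted p = 0.00347) and higher in NASH-fib than in CCl4-fib (log2 fold change 2.19 ± 0.53, adjusted p = 0.03). C5ar1, the receptor of the C5 anaphylatoxin, ranged from 46.8 to 119.5 in HSCs, 5.56 to 35.7 in CCl4-fib and 46.2 to 132 in NASH-fib and had the same calls (log2 fold change -2.57 ± 0.70, adjusted p = 0.0202, and log2 fold change 2.45 ± 0.70, adjusted p = 0.0488). The call of C5ar1 between the fibroblasts was lost whichever library was left out, except HSC replicate 2, and that against HSCs without HSC replicate 2 or 3 or CCl4-fib replicate 1 or 3. The call of C3ar1 between the fibroblasts was lost without CCl4-fib replicate 1 or 2 or NASH-fib replicate 1 or 3.

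F13a1, the transglutaminase subunit of factor XIII and a gene of monocytes and some macrophages, was above the floor only in NASH-fib. It stood at 0, 1.46 and 0 in the HSC libraries, 0.79, 1.70 and 0.95 for CCl4-fib and 20.4, 48.1 and 94.3 for NASH-fib. HSCs and CCl4-fib were at the floor, and NASH-fib lay at least 14.2-fold and 20.9-fold above them.

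Macrophage markers took a like course for part of this group. Of 12, 11 were lower in CCl4-fib and 5 in NASH-fib than in HSCs (91.7% and 41.7%, against 11.7% and 4.3% of all genes tested). Compared with CCl4-fib, 6 were higher in NASH-fib (50%, against 4.97%). The summed levels of the 12 were 5315 to 16551 in HSCs, 389.7 to 779 in CCl4-fib and 2879 to 6469.9 in NASH-fib. Ptprc, which encodes the CD45 used to exclude leukocytes from the sort, stood at 88.8, 315 and 258 in the HSC libraries, 8.73, 25.5 and 24.8 for CCl4-fib and 319, 62.3 and 312 for NASH-fib. Marco was at 0 reads in CCl4-fib replicate 2 and NASH-fib replicates 1 and 2, and Timd4 in CCl4-fib replicate 2 and NASH-fib replicate 2. Clec4f was at 0 in CCl4-fib replicate 3, and Vsig4 and Fcgr1 in CCl4-fib replicate 1. Of 8 neutrophil markers, 7 were tested, and 4 were higher in NASH-fib than in CCl4-fib (57.1%, against 4.97%). The 8 summed to 50.2 to 1053 in HSCs, 5.55 to 78.2 in CCl4-fib and 608 to 6415 in NASH-fib. Camp, Mpo and Elane were at 0 reads in NASH-fib replicate 1. The part of these cells in the myeloid genes was not tested.

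F8, the haemophilia A cofactor made by sinusoidal endothelium, stood at 756, 1721 and 954 in the HSC libraries, 3.17, 17.0 and 34.4 for CCl4-fib and 1028, 54.3 and 231 for NASH-fib. It was lower in CCl4-fib than in HSCs (log2 fold change -6.28 ± 1.01, adjusted p = 0.00126) and higher in NASH-fib than in CCl4-fib (log2 fold change 4.09 ± 1.01, adjusted p = 0.0309), the latter not without CCl4-fib replicate 1 or 2 or NASH-fib replicate 1 or 3. Vwf, the platelet adhesion protein of larger vessels, ranged from 13.1 to 175 in HSCs, 3.40 to 9.52 in CCl4-fib and 28.6 to 170.0 in NASH-fib and was called higher in NASH-fib than in CCl4-fib (log2 fold change 3.37 ± 0.96, adjusted p = 0.0489). That call held under 5 of the 9 other settings and was lost without HSC replicate 1, any CCl4-fib library or NASH-fib replicate 2 or 3. Thbd, thrombomodulin, which turns thrombin toward protein C, had its lowest group in HSCs, at 634, 709 and 466, beside 1003, 1152 and 889 for CCl4-fib and 2070.3, 1044 and 1077 for NASH-fib, with no overlap and no call (log2 fold changes 0.76 ± 0.36 and 1.16 ± 0.36, adjusted p = 0.136 and 0.0616, limma).

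All 12 markers of sinusoidal endothelium were lower in CCl4-fib than in HSCs (100%, against 11.7% of all genes tested). In NASH-fib, 10 were lower than in HSCs (83.3%, against 4.3%) and 8 higher than in CCl4-fib (66.7%, against 4.97%). The 12 summed to 8302 to 17781 in HSCs, 307 to 323 in CCl4-fib and 1220.2 to 4003 in NASH-fib. Stab2, a scavenger receptor, stood at 805, 507 and 1368 in the HSC libraries, 3.97, 21.3 and 21.0 for CCl4-fib and 125, 34.7 and 307 for NASH-fib. The only 0 among the 12 was Tie1 in CCl4-fib replicate 3. The part of endothelial RNA in F8, Vwf and Thbd was not tested.

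F3, tissue factor, is the membrane protein that starts coagulation when blood meets cells outside the vessel. It stood at 2.34, 8.74 and 5.98 in the HSC libraries, 98.4, 105 and 30.5 for CCl4-fib and 166, 187 and 279 for NASH-fib. Every fibroblast library was above every HSC library, and every NASH-fib library above every CCl4-fib library. F3 was 13.7-fold higher in CCl4-fib than in HSCs (log2 fold change 3.51 ± 0.61, adjusted p = 0.00194) and 37-fold higher in NASH-fib (log2 fold change 5.08 ± 0.61, adjusted p = 0.00035), under all alternatives, and the difference between the fibroblasts was not called (log2 fold change 1.57 ± 0.61, adjusted p = 0.122). Tfpi, its inhibitor, stood at 744 to 1168 in HSCs, 474 to 577 in CCl4-fib and 952 to 1641 in NASH-fib. CCl4-fib lay below both other groups with no overlap and no call (-0.91 ± 0.34 against HSCs and, for NASH-fib against CCl4-fib, log2 fold change 1.17 ± 0.34, adjusted p = 0.0506).

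F2r encodes PAR1, the receptor through which thrombin signals to stellate cells and fibroblasts, and stood at 1182, 1529 and 1099 in the HSC libraries, 550.0, 646 and 1044 for CCl4-fib and 631, 615 and 299.8 for NASH-fib. It was highest in HSCs and was called lower in NASH-fib (log2 fold change -1.36 ± 0.39, adjusted p = 0.047) but not in CCl4-fib (-0.81 ± 0.39, adjusted p = 0.153, limma). The NASH-fib call held under 3 of the 9 other settings and was lost whenever a library other than NASH-fib replicate 1 was left out. The membrane inhibitors of complement went opposite ways in CCl4-fib. Cd55, which takes apart convertases, stood at 373, 794 and 485 in the HSC libraries, 1476, 2363 and 1263 for CCl4-fib and 639, 182 and 313 for NASH-fib. It was higher in CCl4-fib than in HSCs (log2 fold change 1.64 ± 0.49, adjusted p = 0.0312) and lower in NASH-fib than in CCl4-fib (log2 fold change -2.30 ± 0.49, adjusted p = 0.0207). The first call was lost without HSC replicate 1 or 3 or any CCl4-fib library, and the second without CCl4-fib replicate 1 or 2 or NASH-fib replicate 3. With edgeR both were lost, with the replicate block the first, and with the library name number as a term the second. Cd59a, which blocks the pore, stood at 1688, 2021 and 1408 in the HSC libraries, 444, 358 and 383 for CCl4-fib and 2354, 661 and 841 for NASH-fib. It was lower in CCl4-fib than in HSCs (log2 fold change -2.10 ± 0.45, adjusted p = 0.00618) under all alternatives, and its near copy Cd59b may share reads with it.

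**Figure D4:**
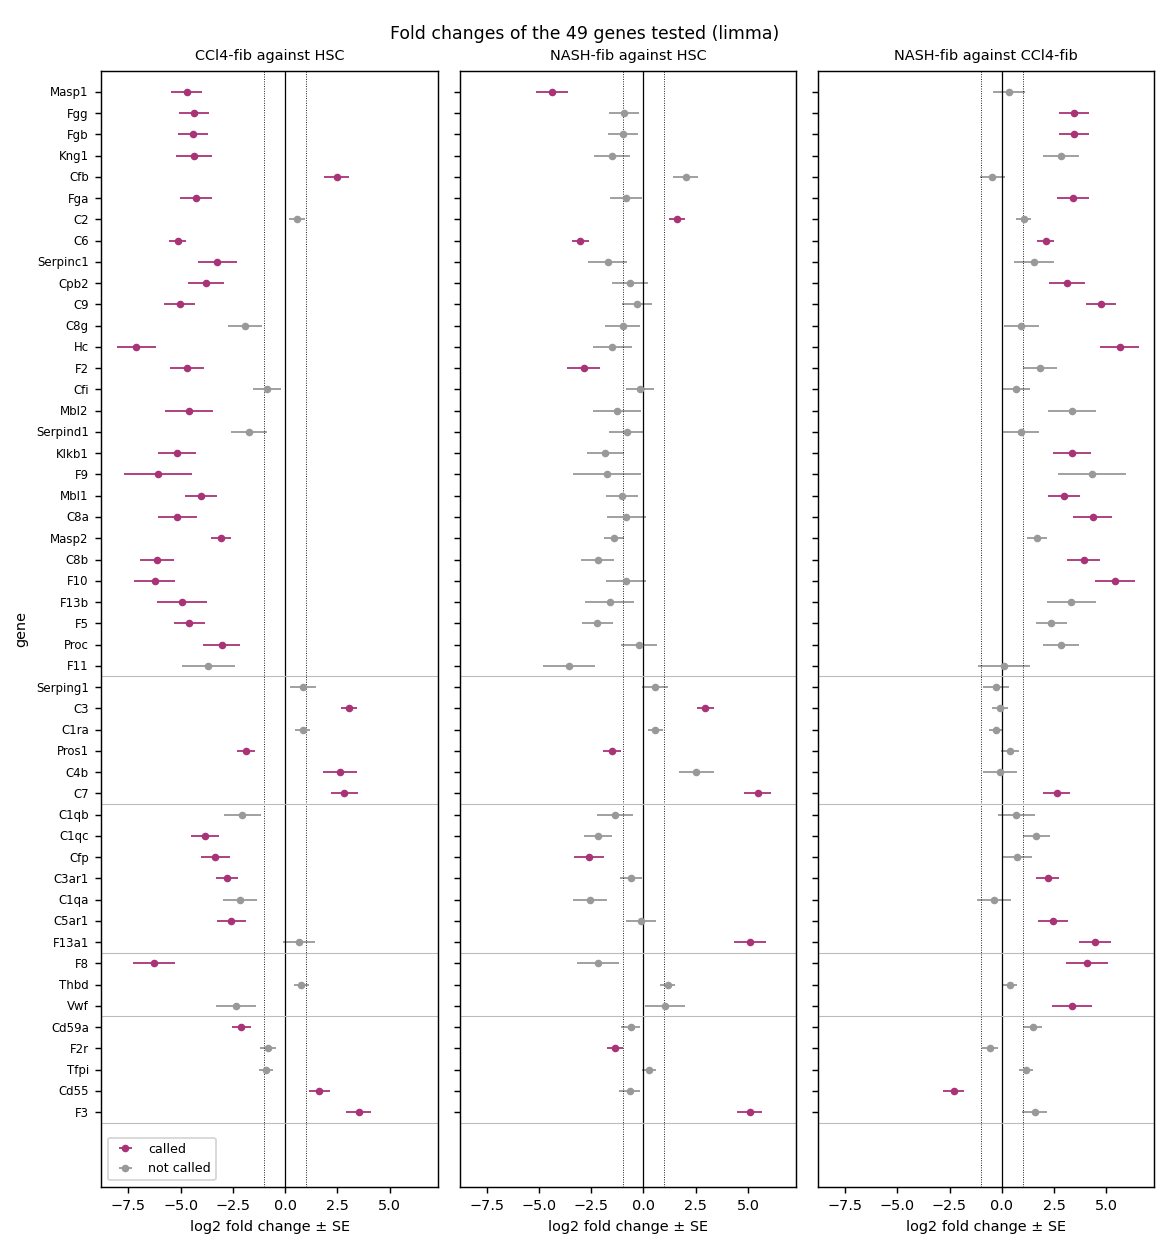
Log2 fold change with its standard error for the 49 genes tested, in the order of the map of levels, for the 3 comparisons, with called genes in purple, others in grey, and dotted lines at a change of 1 in either direction. Most liver-secreted genes lie to the left of -1 in CCl4-fib against HSC and to the right of 0 in NASH-fib against CCl4-fib, whereas Masp1 and C6 lie to the left of 0 in both comparisons with HSC and C3, C7 and F3 to the right.

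The order of levels also changed between groups. Per kb of exon, the highest of the 53 in HSCs were Serping1 at 3582, Fgg at 1983, Fgb at 1776 and Masp1 at 1167 scaled reads. In CCl4-fib they were Serping1 at 5117, C3 at 4383, Cfb at 2864 and C1ra at 945. In NASH-fib Serping1 at 4684, C3 at 4325 and Cfb at 2518 came before C7 at 1602. C7 had been at 32.4 in HSCs, in percentile 48.8 of the genes tested, and was in percentile 97.9 in NASH-fib.

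The calls between the fibroblasts depended on single libraries more than the calls against HSCs. The 19 genes called between them became 3 when NASH-fib replicate 3 was left out, 5 or 6 when it was CCl4-fib replicate 2 or 1, and 12 when it was NASH-fib replicate 1. Leaving out NASH-fib replicate 2 gave 25. C9, Hc and F10 were called whichever library was left out. In CCl4-fib against HSC, 28 of 35 calls held with any 1 library left out and under every other setting, and in NASH-fib against HSC the same was true of C3, C7, F3, C6 and Masp1.

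Other settings ended calls too. With the number that opens the library names as a term in the fit, 14 of the 19 calls between the fibroblasts were lost, those of Fgb and Fgg among them, and C8b, C9, Hc, F10 and Fga were still called. The same term ended 6 of the 11 calls in NASH-fib against HSC (C2, F2, Pros1, Cfp, F2r and F13a1) and 1 of the 35 in CCl4-fib against HSC, that of F9. What the number marks is not given in the sources used here. The replicate block ended the calls of C4b, Cd55 and Proc in CCl4-fib against HSC, those of Pros1 and F2r in NASH-fib against HSC, and those of Klkb1, C7, F8 and Cpb2 between the fibroblasts. Leaving out both libraries that stand apart ended those of F2 and Cfp in NASH-fib against HSC and those of C3ar1, Mbl1, Klkb1 and Cpb2 between the fibroblasts. Of the genes outside the 53 described next, Colec10, Procr and Adamts13 lost their calls in NASH-fib against HSC with the library name number as a term.

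Genes of the same cascades outside the 53 were taken from lists of 28 complement and 26 coagulation genes. Of 25 complement genes tested, 4 were higher in CCl4-fib than in HSCs (C1rb, C1s1, C1s2 and C4a, 16% against 16.2% of all genes) and 12 lower (48%, against 11.7%). In NASH-fib, 2 were higher than in HSCs (C1s1 and C1s2, 8% against 8.23%) and 4 lower (C5ar2, Colec10, Colec11 and Fcna, 16% against 4.3%). Of them 7 were higher in NASH-fib than in CCl4-fib (28%, against 4.97%) with 0 lower. C1s1, the protease partner of C1r, stood at 4801, 3560.3 and 2747 in the HSC libraries, 9272, 8529 and 10086 for CCl4-fib and 13745, 10142 and 10416 for NASH-fib. Colec10, a collectin that works with Masp1, stood at 12536, 21263 and 7361 in the HSC libraries, 7.94, 46.8 and 11.4 for CCl4-fib and 767, 57.9 and 197 for NASH-fib. It was lower in CCl4-fib (log2 fold change -9.49 ± 0.89, adjusted p = 6.07e-05) and NASH-fib (log2 fold change -5.92 ± 0.89, adjusted p = 0.00138), as was Colec11, the other collectin of that complex, at 5032, 2395 and 7751 in HSCs against 658, 549 and 322 and 285, 1087 and 346. Fcna, a ficolin that also binds these proteases, stood at 5249.9, 2111 and 9072 in the HSC libraries, 73.0, 51.9 and 36.2 for CCl4-fib and 14.9, 23.2 and 91.4 for NASH-fib. It was lower than in HSCs in CCl4-fib (log2 fold change -6.47 ± 0.70, adjusted p = 0.000115, limma) and in NASH-fib (log2 fold change -7.14 ± 0.70, adjusted p = 0.000103). Colec11 is also 1 of the 11 quiescent stellate markers. Of these, 8 were lower in CCl4-fib and 9 in NASH-fib than in HSCs (72.7% and 81.8%, against 11.7% and 4.3%).

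Vsig4, the complement receptor of Kupffer cells, stood at 715, 2062 and 2055 in the HSC libraries, 0, 12.8 and 8.59 for CCl4-fib and 366, 46.3 and 219 for NASH-fib. It had among the largest falls in CCl4-fib (log2 fold change -8.15 ± 1.02, adjusted p = 0.000279), and was higher in NASH-fib than in CCl4-fib (log2 fold change 4.94 ± 1.02, adjusted p = 0.018), except without NASH-fib replicate 3. C4bp, a plasma inhibitor of C4, was higher in NASH-fib than in CCl4-fib too (log2 fold change 3.94 ± 0.91, adjusted p = 0.0251), except without any CCl4-fib library or NASH-fib replicate 1 or 3. Against HSCs, C4bp was lower in CCl4-fib (log2 fold change -4.67 ± 0.91, adjusted p = 0.00357, limma) and not called in NASH-fib.

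Of 19 coagulation genes tested, 6 were higher and 6 lower in CCl4-fib than in HSCs (31.6% each, against 16.2% and 11.7% of all genes). In NASH-fib, 3 were higher and 1 lower than in HSCs (15.8% and 5.26%, against 8.23% and 4.3%), and 4 were higher and 2 lower than in CCl4-fib (21.1% and 10.5%, against 4.97% and 5.66%). Serpine2, a cell-bound inhibitor of thrombin, stood at 19.9, 21.8 and 39.5 in the HSC libraries, 461, 519 and 402 for CCl4-fib and 232, 578 and 262 for NASH-fib. Gas6, a vitamin K-dependent ligand related to protein S, stood at 51.4, 29.1 and 253 in the HSC libraries, 1726, 1706 and 1283 for CCl4-fib and 219, 1537 and 1039 for NASH-fib. Both were higher in CCl4-fib (4.10 ± 0.44 and 4.40 ± 0.83, adjusted p = 0.00012 and 0.00297, limma) and in NASH-fib (3.62 ± 0.44 and 3.26 ± 0.83, adjusted p = 0.000394 and 0.0251), the NASH-fib call of Gas6 holding under 7 of the 9 other settings and with 5 of the 9 libraries left out in turn. Procr, the endothelial protein C receptor, was higher in NASH-fib (log2 fold change 2.93 ± 0.59, adjusted p = 0.00738), at 152, 695 and 475 against 50.3, 27.7 and 77.7. It was also higher in CCl4-fib than in HSCs (log2 fold change 2.02 ± 0.59, adjusted p = 0.0274, limma), at 202, 148 and 257. The CCl4-fib call held under 8 of the 9 other settings and with 4 of the 9 libraries left out in turn.

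Bdkrb1, the inducible kinin receptor, had 0 reads in all HSC libraries and stood at 33.3, 48.5 and 28.6 in CCl4-fib, at least 9.6-fold above the floor, and at 1.36, 7.13 and 0.98 in NASH-fib. It passed the filter only through CCl4-fib, where it is high, so its calls, counted above, support nothing. Vkorc1, the vitamin K reductase that warfarin blocks, was lower in NASH-fib than in CCl4-fib (log2 fold change -2.46 ± 0.64, adjusted p = 0.0359), at 185, 108 and 114 against 1072, 1432 and 252. That call held under 8 of the 9 other settings and with 4 of the 9 libraries left out in turn. In HSCs Vkorc1 stood at 108, 300 and 148. It was called higher in CCl4-fib than in HSCs (log2 fold change 2.11 ± 0.64, adjusted p = 0.0321, limma), though the groups overlapped. This call held with 5 of the 9 libraries left out in turn. NASH-fib overlapped the HSCs and was not called against them (-0.36 ± 0.64). Adamts13, the protease that trims von Willebrand factor and is known from stellate cells, stood at 247, 179 and 324 in the HSC libraries, 16.7, 21.3 and 0.95 for CCl4-fib and 8.16, 22.3 and 5.90 for NASH-fib. It was lower than in HSCs in CCl4-fib (log2 fold change -4.74 ± 0.88, adjusted p = 0.00288, limma) and in NASH-fib (log2 fold change -4.42 ± 0.88, adjusted p = 0.00719). Serpina10, a liver-made inhibitor of factor X, was higher in NASH-fib than in CCl4-fib (log2 fold change 4.43 ± 1.12, adjusted p = 0.033), a call that held under 7 of the 9 other settings and with 5 of the 9 libraries left out in turn. Against HSCs, Serpina10 was lower in CCl4-fib (log2 fold change -4.86 ± 1.12, adjusted p = 0.00893, limma) and not called in NASH-fib.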

How the data were processed

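RNA of HSCs, CCl4-fib and NASH-fib, 3 libraries each, was sequenced single-end by the authors, who aligned reads with STAR to mm10 and counted exonic reads of RefSeq genes on both strands with HOMER, at most 3 per position and strand. The deposited values are signal on a gene scale, that is, counts per gene that the authors brought to a common library total of about 4471992. From their steps whole reads were recovered for 100% of values, and these gave the depth and the filter (filterByExpr, minimum count 10, 13651 of 24453 genes kept).

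Log2(value + 1) was fitted with limma 3.58.1 (trend) in R 4.3.3 over all 9 libraries. P-values were adjusted by Benjamini-Hochberg over the 13651 genes, and calls needed an adjusted p under 0.05 and a log2 fold change of 1 or more in size. Fold changes on this scale understate those of low genes. Alternatives were pseudocounts of 0.5 and 5, no filter, edgeR 4.0.16 and DESeq2 1.42.0 on the recovered reads, upper-quartile scaling, each pair of groups alone, the replicate number as a block, the number that opens the library names as a term, and each library left out. P-values measure the spread between pools of mice. The fit was tested on simulated data.

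Members and lists were chosen with earlier results of these data known. All values of a library were given for members called in a comparison and with a group mean of at least 100. C5ar1, F13a1, Vwf and Proc fell below it and A2m was not tested. F13a1 and A2m were given in full, and Thbd and Tfpi described, after their values were seen. Of the genes outside the 53, those with the 3 largest called differences in each direction were named, except 1 that is not reported here, with others chosen after their values were seen (C1s1, C4a, Colec11 and members of counts up to 5). A fold against a group at the floor is set against 3 reads per library and is a lower bound. Promoters are from RefSeq (GRCm38.p6).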

Additional observations from a re-analysis of the deposited data

How the results depend on the processing

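None of the 53 genes, nor of the other cascade genes for which alternatives were run, changed sign in a called comparison. In CCl4-fib against HSC the 35 called genes ranged from 30 to 39 with each library left out in turn (4 to 7 higher, 25 to 32 lower) and moved by less than 1.5 times under every other setting. In NASH-fib against HSC the 11 called genes (5 higher, 6 lower) became 7 with the 2 groups alone (2 lower) and 5 with the library name number as a term (3 higher, 2 lower), edgeR gave 3 lower and DESeq2 8 higher, and leaving out libraries gave 7 to 15 (4 to 7 higher, 2 to 8 lower). In NASH-fib against CCl4-fib the 19 (18 higher, 1 lower) became 32 with DESeq2 (31 higher), 6 with the library name number (6 higher, 0 lower), and edgeR gave 0 lower, while leaving out libraries gave 3 to 25 (3 to 24 higher, 0 to 1 lower). The cause was not tested, other than that the fits with fewer libraries or a further term have fewer degrees of freedom. The replicate block gave 36, 12 and 17 called genes. Replicate numbers did not pair the libraries, since the correlation of deviations of same-numbered libraries ran from -0.473 to 0.514. The median log2 fold change of all genes moved from 0.18 to 0.001 in CCl4-fib against HSC and from -0.111 to 0.142 in NASH-fib against CCl4-fib with edgeR's TMM scaling. Leaving out both libraries that stand apart, chosen after seeing the data, gave 39, 13 and 17.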
